A study of Mus musculus with 16 samples.

Results

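Metallothioneins and zinc transporters were followed in the ileum through 8 of the 21965 genes of the deposited count table, found by matching Ensembl identifiers to the symbols Mt1, Mt2, Mtf1, Slc39a4, Slc39a5, Slc39a14, Slc30a1 and Slc30a10. All 8 genes were present with 1 identifier each, and all 8 passed the filter on low counts that left 13811 genes for testing. RNA was sequenced from the terminal ileum of 16 young adult male C57BL/6 mice, with 1 library per mouse, to ask how EtOH and the fat-1 transgene alter the intestinal transcriptome. The mice were wild-type (WT) or heterozygous for fat-1 (Fat1+/-), a ubiquitous transgene from Caenorhabditis elegans whose enzyme turns n6 into n3 polyunsaturated fatty acids, and the WT mice were littermates. Both genotypes received a Lieber-DeCarli liquid diet, either with EtOH raised stepwise to 6% (v/v) for the last 3 weeks or as pair-fed (PF) controls that drew the same calories from maltose dextrin. The groups were WT PF (4 mice), fat-1 PF (4 mice), WT EtOH (3 mice) and fat-1 EtOH (5 mice), and the transgene has no row among the mouse genes counted.

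Metallothioneins are small, cysteine-rich proteins that bind zinc and copper in the cytosol and buffer their free levels. Their genes are activated by Mtf1, a zinc-sensing transcription factor that binds metal response elements in promoters when cellular zinc rises. Dietary zinc enters enterocytes through members of the ZIP family (Slc39 genes), which move metal into the cytosol, and leaves through members of the ZnT family (Slc30 genes), which move it out of the cytosol to the blood or into vesicles.

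The promoters of 4 of the genes are shown first, because the core of the metal response element is the sequence through which Mtf1 reaches its targets. The 250 bases before each RefSeq start were searched for TGCACNC or TGCGCNC on both strands (RefSeq promoters of GRCm38.p6, the build of the files), and bases that GENCODE places within an exon of the gene were not printed. Entries existed for 6 of the 8 genes, and Slc39a4 and Slc39a14 were not among them. Capitals mark the matches, which read in reverse complement where they lie on the opposite strand. The lines below give Mt1 (chr8:94178839-94179081, plus strand), its neighbour Mt2 (chr8:94172368-94172617, plus strand), Slc30a1 (chr1:191906531-191906766, plus strand) and Slc39a5 (chr10:128401230-128401474, minus strand), each written 5′ to 3′.
Mt1: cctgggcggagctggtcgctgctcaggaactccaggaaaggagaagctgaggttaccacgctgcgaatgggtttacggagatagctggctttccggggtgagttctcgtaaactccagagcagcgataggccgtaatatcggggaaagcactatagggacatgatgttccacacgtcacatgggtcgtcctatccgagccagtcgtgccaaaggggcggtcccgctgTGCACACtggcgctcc
Mt2: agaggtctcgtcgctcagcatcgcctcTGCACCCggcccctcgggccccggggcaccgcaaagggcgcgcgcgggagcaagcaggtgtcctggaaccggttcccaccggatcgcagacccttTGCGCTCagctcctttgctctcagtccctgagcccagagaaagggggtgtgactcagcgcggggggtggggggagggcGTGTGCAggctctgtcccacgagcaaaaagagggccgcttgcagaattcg
Slc30a1: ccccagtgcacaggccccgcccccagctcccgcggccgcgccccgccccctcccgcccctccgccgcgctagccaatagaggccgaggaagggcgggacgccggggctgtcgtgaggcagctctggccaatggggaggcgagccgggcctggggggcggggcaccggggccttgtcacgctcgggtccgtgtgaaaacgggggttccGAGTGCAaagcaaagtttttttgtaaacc
Slc39a5: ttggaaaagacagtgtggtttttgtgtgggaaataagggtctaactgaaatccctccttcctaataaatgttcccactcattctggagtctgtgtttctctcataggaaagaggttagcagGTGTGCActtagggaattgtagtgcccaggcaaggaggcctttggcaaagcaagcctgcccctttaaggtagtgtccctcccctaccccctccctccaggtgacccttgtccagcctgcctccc
The Mt2 promoter held 3 matches, whereas those of Mt1, Slc30a1 and Slc39a5 held 1 each. Slc39a5 had a further RefSeq start whose window held 0 matches. These counts hold for the RefSeq starts used, and the windows of further GENCODE starts of Mt1 (94179211 and 94179241), Mt2 (94172860) and Slc30a1 (191907256), which lie downstream of them, were not searched. The window of Slc30a10 held 3 matches, of which 2 overlap each other on opposite strands, and that of Mtf1 held 0. Of all 32851 promoters searched in the same way, 21.4% held at least 1 match, 5.17% at least 2 and 1.26% at least 3. The match in Mt1 lies 23 to 17 bases before the RefSeq start, and the matches in Mt2 lie 223 to 217, 128 to 122 and 50 to 44 bases before it. A match is a string of letters in this window and was not measured as a binding site here.

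The libraries held 8422645 to 11438539 counted reads, and levels are given as CPM, the usual scaling of counts by library size, here after adjustment with trimmed mean of M-values (TMM). Libraries 1 to 8 came from PF mice and libraries 9 to 16 from EtOH-fed mice, so library order and diet cannot be told apart. Some libraries stood apart in marker genes of gut position. The summed CPM of 7 large intestine markers reached 11893 and 12882 for replicates 3 and 4 of fat-1 EtOH and 5000 for replicate 2 of WT EtOH, against 107 to 455 in the other 13 libraries. Of these markers, Fxyd4 was at 0 in all 16 libraries, and Aqp8 was at 0 in many of those with low sums. Paneth cell markers (6 genes) summed to 128 and 117 CPM in the same fat-1 EtOH replicates 3 and 4, and to 6619 to 26093 CPM elsewhere. In fat-1 PF replicates 2 and 4, the markers of ileal bile acid handling (5 genes), which mark the labelled tissue, summed to 461 and 404 CPM, against 913 to 8049.5 CPM in the other libraries. The summed proximal small intestine markers (8 genes) did not overlap between the diets. They reached 344 to 13692 CPM in PF mice and 14.6 to 169 CPM in EtOH-fed mice. The 2 highest sums were those of fat-1 PF replicates 2 and 4. All markers were chosen with earlier results of these data known. Of the proximal markers, the paper lists Lct, Gata4, Fabp1 and Slc2a2 among the genes most lowered by EtOH in WT mice. Of the large intestine markers, it lists Slc37a2 among those most raised in WT mice and Car1 in fat-1 mice. The separation of the diets by the proximal sum thus follows in part from the choice of genes. Smooth muscle markers (6 genes) also separated the diets, at 906 to 1434 CPM in PF mice and 1859 to 4042 CPM in EtOH-fed mice. B-cell follicle markers (6 genes) summed to 478 CPM in fat-1 EtOH replicate 5, which had the lowest Slc39a4 and Slc30a1 of its group, and to 1.16 to 92.1 CPM in the other 15 libraries. The part of these cells in the results was not tested. In such bulk samples, fewer cells of a type and less RNA per cell cannot be told apart. Counts of genes called by edgeR were therefore also taken without fat-1 EtOH replicates 3 and 4, without these and WT EtOH replicate 2, and without fat-1 PF replicates 2 and 4.

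The importers Slc39a4 and Slc39a5 were the most abundant of the 8 transcripts. To compare genes, levels were divided by the summed length of each gene's exons in kilobases, and the median over the 16 mice was 116.5 CPM per kb for Slc39a4, 97.3 for Slc39a5, 58.9 for Mt1, 31.3 for Mt2, 15.8 for Slc30a1, 12.6 for Slc39a14, 6.61 for Slc30a10 and 6.36 for Mtf1. Each gene overlapped its neighbour in this order over the single mice. In both PF groups the median of Slc39a5 was above that of Slc39a4 (115.3 and 110.3 CPM per kb in WT PF mice, 126.5 and 91.5 in fat-1 PF mice), and in both EtOH groups it was below it (89.0 and 133.5 CPM per kb in WT EtOH mice, 79.85 and 113 in fat-1 EtOH mice). The order of the lower genes depended on the length used, since with the longest transcript Slc39a14 stood above Slc30a1 and Mtf1 above Slc30a10.

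**Figure D1:**
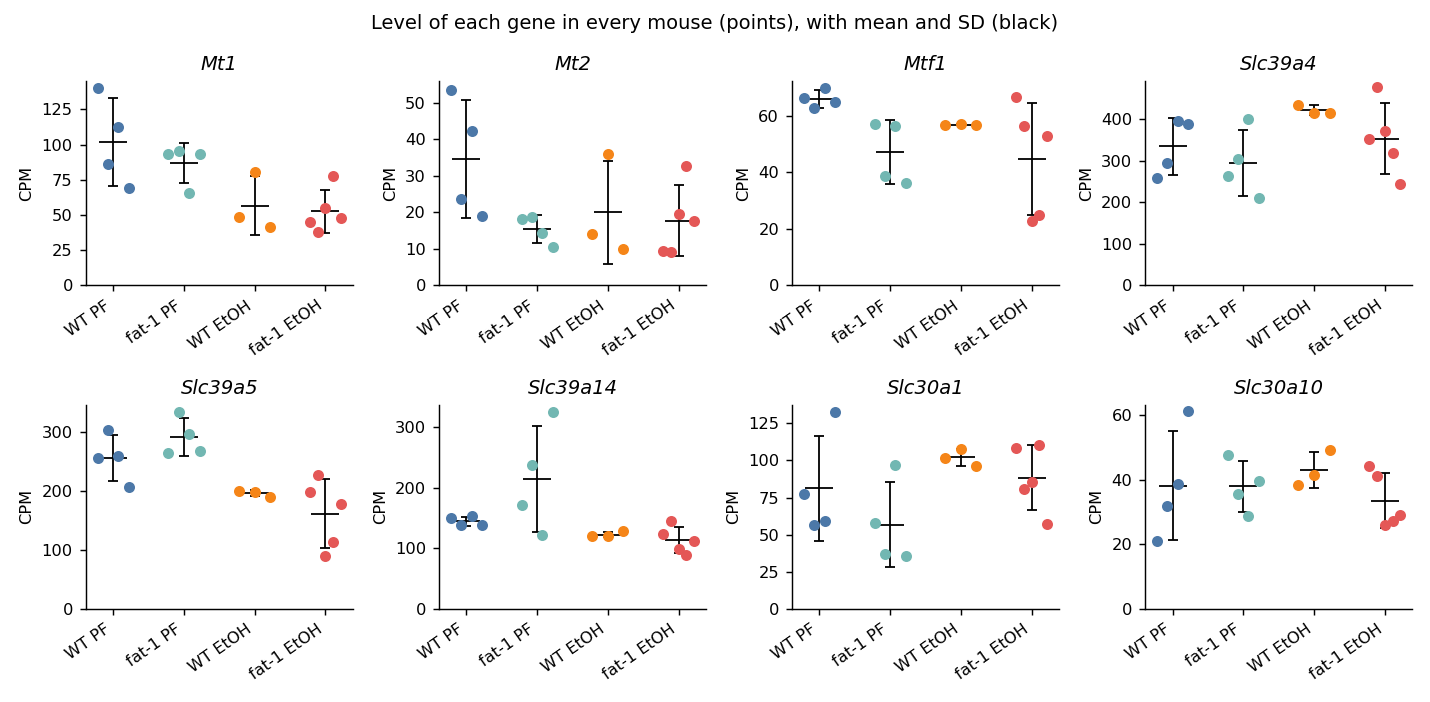
Level of each of the 8 genes in CPM (y axis) in every mouse, by group (x axis), with points for mice and black bars for the mean and SD. Slc39a5 in fat-1 EtOH mice lay between 89.1 and 227 CPM, below all fat-1 PF mice (265 to 333 CPM), whereas the groups of Mt1 and Slc39a14 overlapped.

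The response to EtOH was compared first. In fat-1 mice, 3 of the 8 genes were lower with EtOH by the quasi-likelihood test of edgeR, adjusted over all genes by the Benjamini-Hochberg method (adjusted p at most 0.05, termed called): the metallothionein Mt1 and the importers Slc39a5 and Slc39a14. None was called higher. In this comparison edgeR called 37.4% of all genes tested, of which genes called higher made up 18.7% and genes called lower 18.8% of all genes, so 3 of 8 was near the background. In WT mice 0 of the 8 genes were called, where edgeR called 0.0796% of all genes (11 genes). The latter number was 0 to 66 when 1 mouse was left out, with the most without WT PF replicate 4, and 267 without fat-1 EtOH replicates 3 and 4. At an unadjusted p under 0.05, 1 of the 8 (Mt1) passed in WT mice, against 14.1% of all genes. DESeq2 also called 0 of the 8 in WT mice (2.11% of the genes to which it gave an adjusted p), while limma voom with sample quality weights called Mt1 and Mt2 as lower (20.7% of all genes). The median log2 fold change of the 8 genes was -0.13 for the fat-1 and -0.22 for the WT genotype, beside 0.05 and 0.01 for all genes. The groups of single mice did not overlap for 1 of the 8 genes in fat-1 mice (Slc39a5), against 24% of all genes, and for 4 of the 8 in WT mice (Mtf1, Slc39a5 and Slc39a14 lower, Slc39a4 higher), against 24.3% of all genes.

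The 3 calls in fat-1 mice were retaken without the libraries that stood apart. Without fat-1 EtOH replicates 3 and 4, Mt1, Slc39a5 and Slc39a14 were again called, beside 30.2% of all genes, and they were called also without WT EtOH replicate 2 in addition (29.6% of all genes). Without fat-1 PF replicates 2 and 4, the 2 libraries lowest in ileal markers and highest in proximal ones, 0 of the 8 genes were called by edgeR, beside 14.3% of all genes, and 1 (Slc39a5) passed at an unadjusted p under 0.05, beside 34.7% of all genes. This fit had 2 fat-1 PF mice in place of 4. The log2 fold change was then -0.79 for Slc39a5 (-0.85 in all mice), -0.58 for Mt1 (-0.72) and -0.36 for Slc39a14 (-0.91), so that Slc39a14 moved the most of the 3. The part of gut position in these calls was not tested.

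Mt1 (ENSMUSG00000031765, chr8:94179082-94180327, plus strand) was the more abundant metallothionein. Its level in fat-1 PF mice was 93.1, 95.6, 65.5 and 93.5 CPM and in fat-1 EtOH mice 44.85, 37.9, 55.3, 77.7 and 48.0 CPM. Mt1 was 1.65-fold lower with EtOH in fat-1 mice (log2 fold change -0.72, SE 0.25, adjusted p = 0.0348 by edgeR), with overlap only through fat-1 EtOH replicate 4, which lay above fat-1 PF replicate 3. This call was the least stable of the 3. Of 16 fits that each dropped a single mouse, 7 lost it (adjusted p 0.0578 to 0.0861). These were the fits without fat-1 PF replicate 1, 2 or 4 or fat-1 EtOH replicate 1, 2, 3 or 5. The call was also lost with upper-quartile normalization (-0.56, adjusted p = 0.0848) and with a block for the replicate number (-0.68, adjusted p = 0.103). Without fat-1 EtOH replicates 3 and 4 the log2 fold change was -0.97 (adjusted p = 0.0147), and without fat-1 PF replicates 2 and 4 it was -0.58 (adjusted p = 0.215).

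In WT mice, Mt1 was at 140.0, 86.1, 113 and 69.0 CPM in the PF group and at 48.3, 80.4 and 41.25 CPM in the EtOH group. The fitted difference was of similar size (log2 fold change -0.85, SE 0.29) but did not pass the test over all genes (adjusted p = 0.232 by edgeR), and WT EtOH replicate 2 lay within the PF range. In limma voom it passed (-1.07, adjusted p = 0.00456). The interaction of genotype and diet for Mt1 was 0.13 on the log2 scale (SE 0.38, adjusted p = 0.916), so no difference between the genotypes in the response was detected.

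Mt2 (ENSMUSG00000031762, chr8:94172664-94173568, plus strand), the neighbour of Mt1, was at 53.65, 23.65, 42.4 and 18.9 CPM in WT PF mice and at 14.15, 36.0 and 9.83 CPM in WT EtOH mice. Both the highest and the lowest values of this comparison were far apart within a group, and the log2 fold change of -0.80 (SE 0.51) was not called by edgeR (adjusted p = 0.491), although limma voom called it (-1.27, adjusted p = 0.023). The edgeR value was -1.53 without WT EtOH replicate 2, the WT library high in large intestine markers, and -0.47 without WT EtOH replicate 3, and it was not called in either fit. In fat-1 mice, Mt2 was at 18.1, 18.7, 14.5 and 10.4 CPM in the PF group and at 9.50, 9.27, 19.7, 32.8 and 17.6 CPM in the EtOH group. Here the fitted value was 0.20 (SE 0.45, adjusted p = 0.74) and turned to -0.32 (adjusted p = 0.625) without fat-1 EtOH replicates 3 and 4. Of the 75-base windows along the Mt2 transcripts, 30.2% also lie in the antisense gene Gm45774, and whether the counting used the read strand is not given in the sources used here, so its counts are less certain than those of Mt1, which shares 0% of its windows.

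Among the EtOH-fed mice, both metallothioneins were higher in the 3 libraries with high large intestine markers than in the other 5. Mt1 was at 80.4, 55.3 and 77.7 CPM in WT EtOH replicate 2 and fat-1 EtOH replicates 3 and 4, against 37.9 to 48.3 CPM in the other 5 mice. Mt2 was at 36.0, 19.7 and 32.8 CPM in these libraries and at 9.27 to 17.6 CPM in the others. The ranges did not overlap for these 2 of the 8 genes and overlapped for the other 6, against 15.1% of all genes without overlap in the same split of libraries. This split of libraries was chosen after seeing the data. Over all 16 mice, Mt1 had a Pearson r of -0.12 and Mt2 one of 0.35 with the large intestine sum. Whether gut position has a part in these levels was not tested.

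The relative level of the metallothioneins is given as a description, with no test of the ratio. The number of Mt1 reads per Mt2 read, which does not depend on library size, was 2.61, 3.64, 2.66 and 3.65 in WT PF mice and 5.135, 5.12, 4.52 and 8.965 in fat-1 PF mice. These groups did not overlap, while neither gene was called between them. In WT EtOH mice the ratio was 3.41, 2.23 and 4.20, and in fat-1 EtOH mice 4.72, 4.09, 2.81, 2.37 and 2.72, where the genotypes overlapped. The sum of Mt1 and Mt2 overlapped between the PF groups, at 87.9 to 194 CPM in WT and 79.95 to 114 CPM in fat-1 mice, and was at 51.1 to 116 CPM in WT EtOH and 47.2 to 110.5 CPM in fat-1 EtOH mice. Over the 16 mice the log2 CPM of Mt1 and Mt2 had a Pearson r of 0.74, and their deviations from the group means one of 0.89. These correlations are descriptions over libraries that share diet, genotype and gut position.

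**Figure D2:**
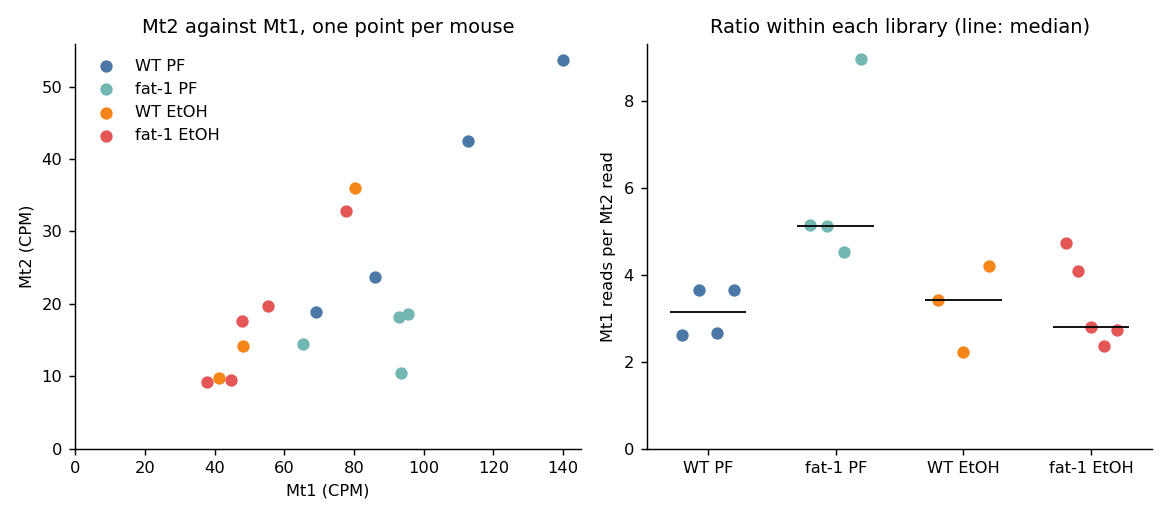
Mt2 against Mt1 in CPM for each mouse (left) and the number of Mt1 reads per Mt2 read in each library by group with the median as a line (right). The 4 fat-1 PF mice lie above all 4 WT PF mice in the ratio (4.52 to 8.965 against 2.61 to 3.65).

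Mtf1 (ENSMUSG00000028890, chr4:124802104-124849800, plus strand), the zinc sensor, was not called in any comparison. In WT mice it was at 66.1, 62.6, 69.9 and 64.6 CPM with the PF diet and at 56.6, 56.9 and 56.7 CPM with EtOH, so the groups did not overlap although the log2 fold change was small (-0.21, SE 0.31, adjusted p = 0.791). In fat-1 mice it was at 57.1, 38.7, 56.3 and 36.1 CPM with the PF diet and at 66.7, 56.3, 22.8, 24.7 and 52.7 CPM with EtOH. The low values were those of fat-1 PF replicates 2 and 4 and of fat-1 EtOH replicates 3 and 4, which were also the 4 lowest of all libraries in summed Paneth cell markers (6619, 8848, 128 and 117 CPM). The fitted value in fat-1 mice was -0.08 (SE 0.27) and became 0.34 (adjusted p = 0.11) without fat-1 EtOH replicates 3 and 4. Across the 16 mice the log2 CPM of Mtf1 and that of the Paneth cell sum had a Pearson r of 0.92. The sum of 8 general epithelial markers, which was also lowest in fat-1 EtOH replicates 3 and 4 (10438 and 10433 CPM, against 12334 to 19114 CPM elsewhere), had one of 0.87 with Mtf1. Slc39a5 had 0.83 with the Paneth cell and 0.80 with the epithelial sum. Whether the share of Paneth cells or epithelium has a part in these levels was not tested.

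Slc39a4 (ENSMUSG00000063354, chr15:76612383-76617384, minus strand) encodes ZIP4, the apical importer of dietary zinc whose loss in humans causes acrodermatitis enteropathica. It was at 258, 296, 395 and 389.6 CPM in WT PF mice and at 435, 415 and 414.5 CPM in WT EtOH mice. All 3 WT EtOH mice lay above all WT PF mice, yet the log2 fold change of 0.33 (SE 0.23) was not called (adjusted p = 0.527). In fat-1 mice it was at 263, 305, 400.0 and 210.4 CPM with the PF diet and at 351, 479, 372, 319 and 243 CPM with EtOH, with overlap (0.26, SE 0.20, adjusted p = 0.326).

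Slc39a5 (ENSMUSG00000039878, chr10:128395931-128401229, minus strand) encodes ZIP5, a basolateral importer that takes zinc from the blood side into enterocytes. It was at 265, 333, 296 and 267 CPM in fat-1 PF mice and at 198.5, 227, 89.1, 113 and 178 CPM in fat-1 EtOH mice. Every fat-1 EtOH mouse lay below every fat-1 PF mouse, and the gene was 1.80-fold lower (log2 fold change -0.85, SE 0.22, adjusted p = 0.00803). The 2 lowest values were those of fat-1 EtOH replicates 3 and 4, without which the change was -0.50 (adjusted p = 0.0134). Without fat-1 PF replicates 2 and 4 it was -0.79 (adjusted p = 0.0735). In WT mice the levels were 255, 302, 258 and 206 CPM with the PF diet and 200.4, 198.0 and 189.6 CPM with EtOH, again without overlap, but the change of -0.38 (SE 0.25) was not called (adjusted p = 0.506).

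Slc39a14 (ENSMUSG00000022094, chr14:70303469-70351425, minus strand) encodes ZIP14, which carries zinc, iron and manganese. Its level was 171, 237, 122 and 325 CPM in fat-1 PF mice and 123, 144, 99.0, 88.85 and 112 CPM in fat-1 EtOH mice. It was 1.89-fold lower with EtOH in fat-1 mice (log2 fold change -0.91, SE 0.21, adjusted p = 0.00477), and the groups overlapped through fat-1 PF replicate 3. The highest values, 237 and 325 CPM, were those of fat-1 PF replicates 2 and 4, without which the change was -0.36 (adjusted p = 0.149). Without fat-1 EtOH replicates 3 and 4 it was -0.73 (adjusted p = 0.0326). In WT mice the PF group lay at 149.6, 139, 153 and 139 CPM and the EtOH group at 120.1, 120.3 and 128 CPM, without overlap and not called (-0.24, SE 0.24, adjusted p = 0.69).

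Slc30a1 (ENSMUSG00000037434, chr1:191906767-191913247, plus strand) encodes ZnT1, the exporter of zinc across the plasma membrane and a classical target of Mtf1. It was at 77.3, 56.5, 59.0 and 132 CPM in WT PF mice and at 102, 108 and 96.5 CPM in WT EtOH mice, within the PF range (log2 fold change 0.33, SE 0.35, adjusted p = 0.711). In fat-1 mice it was at 58.0, 36.8, 96.8 and 35.6 CPM with the PF diet and at 108.6, 80.5, 85.2, 110.4 and 57.1 CPM with EtOH. The fitted value in fat-1 mice was 0.64 (SE 0.32, adjusted p = 0.124) and passed the test, among the fits that each dropped a single mouse, only without fat-1 PF replicate 3 (1.03, adjusted p = 0.0176). Without fat-1 PF replicates 2 and 4 it was 0.20 (SE 0.34, adjusted p = 0.682). The fitted direction of Slc30a1 was thus opposite to that of Mt1 in both genotypes. By edgeR, Slc30a1 was called in neither genotype and Mt1 only in fat-1 mice. The difference between the genes was not tested.

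Slc30a10 (ENSMUSG00000026614, chr1:185454848-185468762, plus strand) encodes ZnT10, which is known mainly as an exporter of manganese. It was at 21.1, 31.8, 38.8 and 61.2 CPM in WT PF mice, 38.4, 41.5 and 49.3 CPM in WT EtOH mice, 47.7, 35.7, 28.8 and 39.5 CPM in fat-1 PF mice and 44.2, 41.2, 26.1, 27.4 and 29.1 CPM in fat-1 EtOH mice. The WT PF mice spanned all other mice, and neither EtOH comparison was called (0.17, SE 0.29, adjusted p = 0.829 in WT, and -0.18, SE 0.26, adjusted p = 0.603 in fat-1 mice). Between 7.27% and 7.97% of the 75-base windows of Mtf1, Slc30a1 and Slc30a10 lie also in antisense genes, and those of the 3 importers are not shared.

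**Figure D3:**
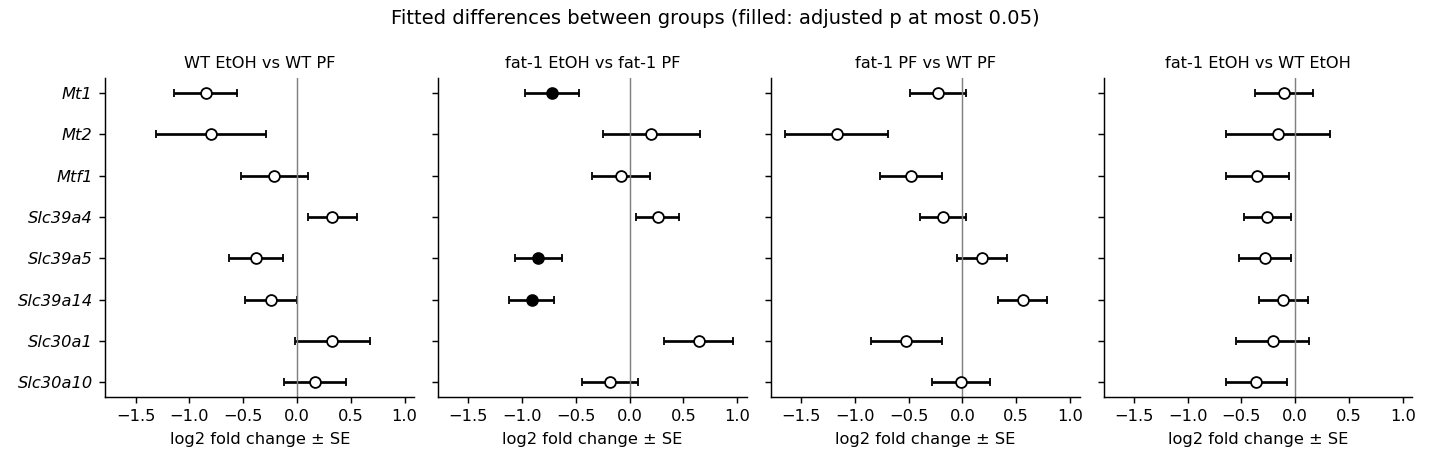
Fitted log2 fold changes (x axis, points with SE bars) of the 8 genes (y axis) in the 4 comparisons of groups, with filled points for an adjusted p at most 0.05. The 3 filled points are Mt1 (-0.72), Slc39a5 (-0.85) and Slc39a14 (-0.91) in fat-1 EtOH against fat-1 PF mice.

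The comparison of genotypes in PF mice asked what the transgene alters without EtOH. None of the 8 genes was called by edgeR, which called 0% of all genes, by DESeq2 (2.56% of the genes with an adjusted p) or by limma voom (0.217% of all genes). At an unadjusted p under 0.05, 2 of the 8 passed, against 12.7% of all genes. Mt2 was 2.25-fold below WT in the fat-1 PF group (log2 fold change -1.17, SE 0.48, adjusted p = 0.322), and its groups touched without overlap, the highest fat-1 PF mouse being at 18.7 and the lowest WT PF mouse at 18.9 CPM. Slc39a14 had a fitted value of 0.56 (SE 0.23, adjusted p = 0.313), with overlap, and one of 0.01 (SE 0.18) without fat-1 PF replicates 2 and 4. Without these libraries Slc30a1 was at -0.08 and Mtf1 at -0.22, whereas Mt2 was at -1.09 (SE 0.63). The groups did not overlap for 2 of the 8 genes, Mt2 and Mtf1, both lower in fat-1 mice, against 6.87% of all genes. The fitted values of Mt1 (-0.23), Mtf1 (-0.48), Slc39a4 (-0.18), Slc39a5 (0.18), Slc30a1 (-0.52) and Slc30a10 (-0.01) did not pass at an unadjusted p under 0.05.

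In EtOH-fed mice none of the 8 genes was called between the genotypes by edgeR (0.00724% of all genes called), DESeq2 (0.0363% of the genes with an adjusted p) or limma voom (0.00724%). At an unadjusted p under 0.05, 0 of the 8 passed, against 4.86% of all genes, and the groups overlapped for all 8, against 2.45% of all genes without overlap. All 8 fitted values were below 0, from -0.36 (Slc30a10, SE 0.28) to -0.10 (Mt1, SE 0.27), and without fat-1 EtOH replicates 3 and 4 they ranged from -0.72 (Mt2, -0.16 in all mice) and -0.39 (Mt1) to 0.04 (Mtf1 and Slc39a14), with 0 of the 8 called.

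The interaction of genotype and diet asks if EtOH had unequal effects in fat-1 and WT mice. It was called for 0 of the 8 genes by edgeR, DESeq2 and limma voom, each of which called 0% of all genes, and at an unadjusted p under 0.05 it passed for 0 of the 8, against 8.26% of all genes. The smallest p was that of Slc39a14 (-0.67, SE 0.32, adjusted p = 0.595), which was -0.13 (SE 0.23) without fat-1 PF replicates 2 and 4, and the value of Mt2 was 1.00 (SE 0.68, adjusted p = 0.632). For Mt2 it was 1.74 without WT EtOH replicate 2, 0.66 without fat-1 EtOH replicate 4 and 0.47 without fat-1 EtOH replicates 3 and 4. The calls in fat-1 mice thus do not show a response that differs from that in WT mice. Since the comparisons share groups of mice, their values are not independent of each other.

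The levels of several of these genes followed markers of gut position across libraries. The log2 CPM of Slc39a5 had a Pearson r of 0.87 over the 16 mice with that of the summed proximal small intestine markers, and Slc39a14 one of 0.83. Mt1 had 0.66, Mtf1 0.31, Slc30a1 -0.70 and Slc39a4 -0.48, whereas Mt2 (0.08) and Slc30a10 (0.02) were near 0. With the sum of ileal bile acid markers, Mtf1 had 0.70, Slc30a1 0.68, Slc39a4 0.61 and Slc30a10 0.37. Slc39a5 had 0.02 with that sum, Mt2 -0.09, Mt1 -0.45 and Slc39a14 -0.55. Slc39a5 had -0.85 with the large intestine sum and -0.89 with the smooth muscle sum. Since the proximal and smooth muscle sums do not overlap between the diets, diet and position move together in these values. Within the PF diet alone, the libraries with the highest proximal sums, fat-1 PF replicates 2 and 4, had the highest Slc39a14 and the lowest Slc30a1 and Mtf1. For Mtf1 this is opposite to the sign of its r over all mice (0.31). WT PF replicate 4, with the lowest proximal sum (344 CPM), had the highest Slc30a1 (132 CPM) and the lowest Slc39a5 (206 CPM). Slc39a5 was highest in fat-1 PF replicate 2 (333 CPM). Its level in fat-1 PF replicate 4 (267 CPM), however, lay below WT PF replicate 2 (302 CPM) and fat-1 PF replicate 3 (296 CPM). WT PF replicates 1 (140 CPM) and 3 (113 CPM) had more Mt1 than fat-1 PF replicates 2 (95.6 CPM) and 4 (93.5 CPM).

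**Figure D4:**
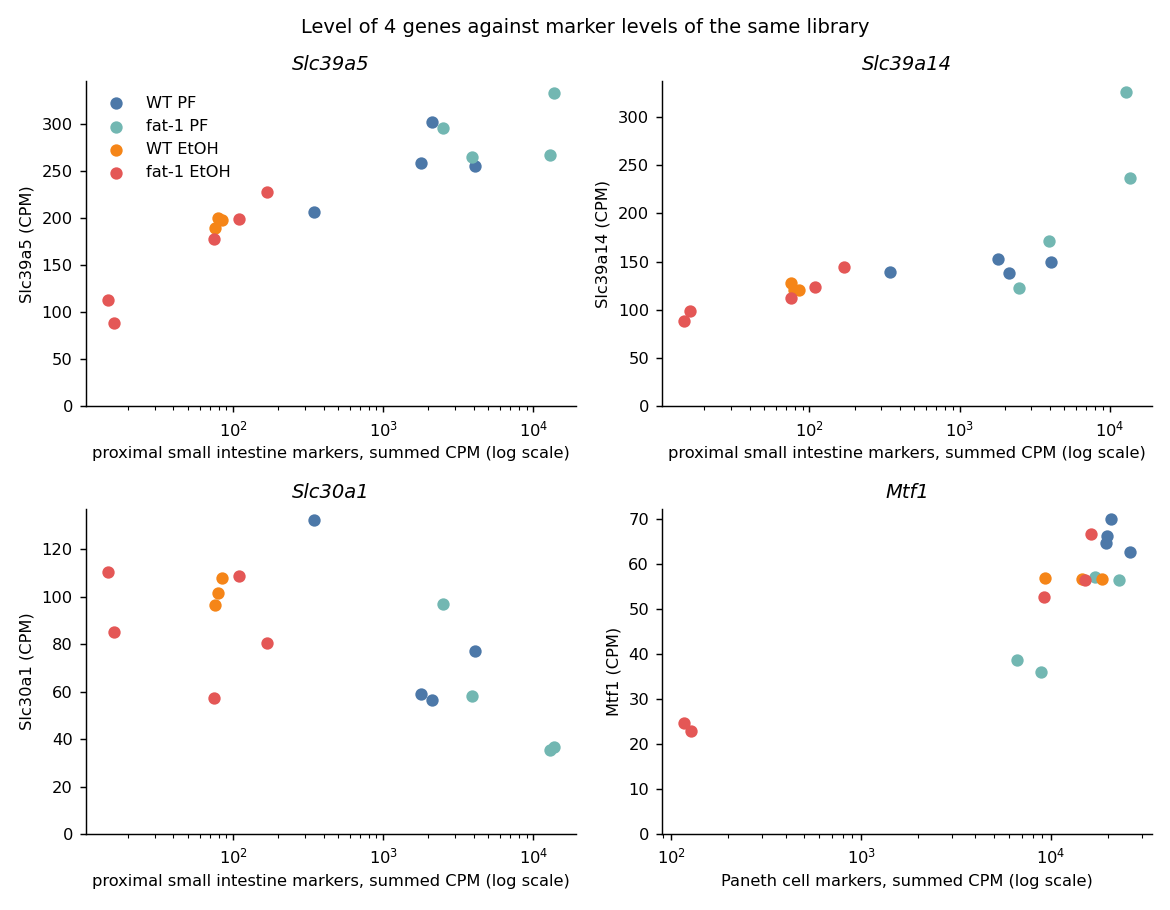
Level in CPM (y axis) of Slc39a5, Slc39a14 and Slc30a1 against the summed proximal small intestine markers, and of Mtf1 against the summed Paneth cell markers (x axes, summed CPM on a log scale), 1 point per mouse. The libraries at 14.63 and 15.99 CPM of proximal markers, fat-1 EtOH replicates 4 and 3, have the lowest Slc39a5 and Slc39a14, and the same libraries have the lowest Mtf1.

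The genes whose log2 CPM varied most like each of the 8 over the 16 mice were found among all genes tested, as a description of libraries that share diet, genotype and gut position. For Slc39a5 these were Nags, the enzyme that makes the activator of the urea cycle (Pearson r = 0.99), Prelid1 (0.99) and Dera (0.98). For Mtf1 they were Adcy8 (0.98), the peptidase gene Xpnpep2 (0.98) and the Paneth cell defensin Defa21 (0.97). For Slc39a14 they were the transcription factor Foxq1 (0.96), Suco (0.95) and Sec16b (0.94). Slc30a1 was most like Inava (0.93), Osbpl7 (0.93) and the hexokinase Hk2 (0.92), and Slc39a4 most like the adherens junction genes Cdh1 (0.85) and Ctnnb1 (0.84) and the ephrin Efnb1 (0.84). Lower values were found for Mt1 (Tbc1d13, 0.84, Atpaf1, 0.83, and Rabif, 0.83), Slc30a10 (Itga6, 0.78, Capn3, 0.78, and Gpr17, 0.77) and Mt2 (Mt1, 0.74, Pi4kb, 0.74, and Bud13, 0.73). On deviations from the group means the first genes were Tbl3 for Mt1 (0.91), Hoxa7 for Mt2 (0.91), Xpnpep2 for Mtf1 (0.98), Efnb1 for Slc39a4 (0.88), Nags for Slc39a5 (0.99), Foxq1 for Slc39a14 (0.94), Inava for Slc30a1 (0.90) and Gpr17 for Slc30a10 (0.83).

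Other genes that handle zinc, copper and manganese were read from the same fit. Of 36 listed, 30 were tested, and in fat-1 mice 4 were called higher and 12 lower with EtOH by edgeR, beside 18.7% and 18.8% of all genes. None was called in the other comparisons by edgeR, and at an unadjusted p under 0.05 the test passed for 4 of the 30 in WT EtOH against WT PF mice (14.1% of all genes), 5 in fat-1 PF against WT PF mice (12.7%), 1 in fat-1 EtOH against WT EtOH mice (4.86%) and 6 in the interaction (8.26%). In WT mice, where it called 20.7% of all genes, limma voom called 7 (Atox1, Atp7b, Commd1, Sco2, Slc11a2, Slc30a5 and Slc39a7) and DESeq2 0, and between the PF groups DESeq2 called 1 (Commd1, beside 2.56% of the genes with an adjusted p) and limma voom 1 (Sco2, beside 0.217% of all genes). Of the 6 other ZnT genes tested, 3 were called lower with EtOH in fat-1 mice and 0 higher. Slc30a5, which with Slc30a6 loads zinc into the secretory pathway, ranged from 151 to 193 CPM with the PF diet and from 69.1 to 121 CPM with EtOH in these mice (log2 fold change -0.88, SE 0.16, adjusted p = 0.00099). Slc30a6 fell by 0.48 and the mitochondrial transporter Slc30a9 by 0.23 on the log2 scale. Of the 9 other ZIP genes, 3 were called higher and 0 lower. These were Slc39a10 (1.24, SE 0.30, adjusted p = 0.00545) and its close relative Slc39a6 (0.64, SE 0.18), importers of the plasma membrane, and Slc39a13 (0.57, SE 0.18), which acts on zinc of the secretory pathway. Their levels were low, as Slc39a10 ranged from 3.51 to 9.22 CPM with the PF diet and from 8.76 to 21.4 CPM with EtOH.

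Of the 10 copper genes, 6 were called lower with EtOH in fat-1 mice and 0 higher, beside 18.8% and 18.7% of all genes. The list was chosen with earlier results of these data known. The copper-exporting ATPase Atp7b ranged from 14.5 to 43.7 CPM with the PF diet and from 1.07 to 10.55 CPM with EtOH (log2 fold change -2.48, SE 0.55, adjusted p = 0.00361). Sco2, a chaperone of cytochrome c oxidase assembly, was at 15.85 to 37.6 and 5.13 to 7.71 CPM (-1.98, SE 0.25, adjusted p = 0.00025), and its exons overlap those of Tymp on the same strand and of Ncaph2 on the other. Exons of the called genes Commd1 (Gm28048), Cox17 (Gm21987) and Tmem165 (Apc-ps1) also overlap another gene on the same strand, and those of Commd1 (Zrsr1), Slc11a2 (Gm5475), Atp13a1 (Zfp866) and Slc39a13 (Psmc3) one on the opposite strand, so the counts of these genes are less certain. The copper chaperone Atox1 (-0.76, SE 0.11), the regulator Commd1 (-0.65, SE 0.10) and the copper importer Slc31a1 (-0.52, SE 0.19) changed less. Of the 5 manganese genes, Atp2c2, a pump of the secretory pathway, was higher (1.49, SE 0.38, and 0.64 without fat-1 EtOH replicates 3 and 4), and Tmem165 (-0.62, SE 0.10), a Golgi protein, the metal importer Slc11a2 (-0.35, SE 0.11) and the endoplasmic reticulum ATPase Atp13a1 (-0.22, SE 0.07) were lower.

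Of these 16 calls, 11 remained without fat-1 EtOH replicates 3 and 4, where Slc30a2, Slc39a7 and Slc39a11 were called in addition, beside 30.2% of all genes. Only 5 (Slc30a5, Atox1, Commd1, Sco2 and Tmem165) remained without fat-1 PF replicates 2 and 4, where 0 were gained, beside 14.3% of all genes. Atp2c2 was at 52.7 and 38.7 CPM in fat-1 EtOH replicates 3 and 4 and at 13.7 to 16.9 CPM in the other 3 fat-1 EtOH mice. Without these 2 libraries Slc39a10 was at 0.80, Slc31a1 at -0.20, Slc11a2 at -0.22 and Atp13a1 at -0.13, of which Slc39a10 was still called. Slc30a9 (-0.23) and Slc39a13 (0.44) also lost their calls. Atp7b was not called without fat-1 PF replicates 2 and 4 (-1.80, adjusted p = 0.0733).

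**Figure D5:**
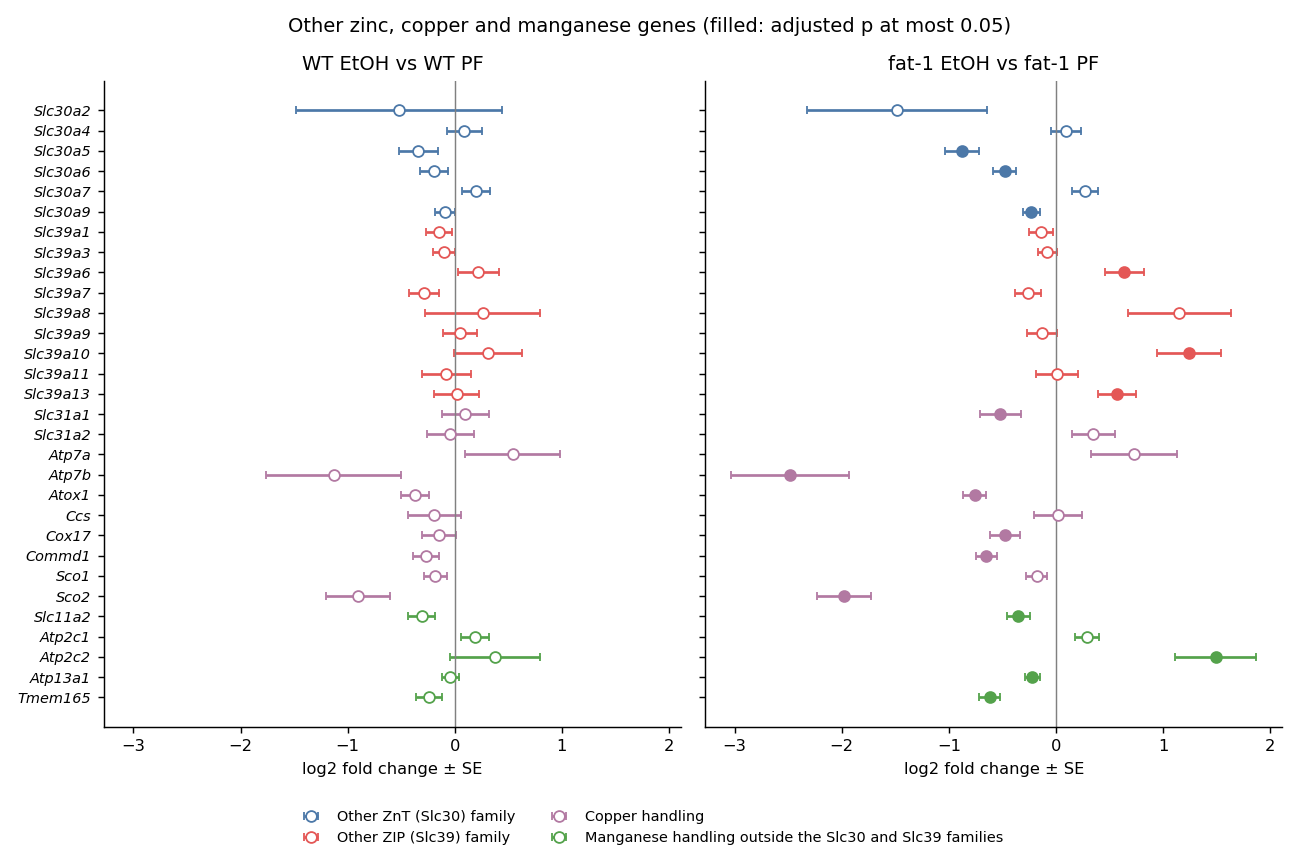
Fitted log2 fold changes (x axis, points with SE bars) of the 30 other zinc, copper and manganese genes (y axis, coloured by list) with EtOH in WT mice (left) and fat-1 mice (right), filled where the adjusted p is at most 0.05. No point is filled on the left, and 16 are on the right, with Atp7b (-2.48) and Sco2 (-1.98) lowest.

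Some relatives of the 8 genes, chosen after their values were seen, stood apart in fat-1 EtOH replicates 3 and 4, the libraries highest in large intestine markers, but not in WT EtOH replicate 2. Slc30a2, which encodes the vesicular transporter ZnT2, had 10 and 15 counts in fat-1 EtOH replicates 3 and 4 and 735 to 1204 counts in the other 14 libraries, and these 2 libraries were also those with Paneth cell sums of 128 and 117 CPM. Its log2 fold change in fat-1 mice was -1.48 (SE 0.84, adjusted p = 0.175) with and -0.72 (SE 0.13, adjusted p = 0.00195) without these 2 libraries. Slc39a8, the importer ZIP8, had 685 and 460 counts in these 2 libraries (56.2 and 41.0 CPM) and 57 to 191 counts in the others. Mt3, a metallothionein known from brain, had 91 and 71 counts there and at most 9 counts elsewhere, and was not tested. Mt4, known from stratified epithelium, had at most 1 count in any library, and Slc30a8, the transporter of insulin granules, had 0 counts in all 16, where 3 counts would be 0.246 to 0.421 CPM.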

How the data were processed

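Stranded libraries of poly(A) RNA from 16 ileum samples were sequenced. The authors aligned reads with tophat2 to mm10 (GRCm38), and the deposited values are whole-number htseq counts for each Ensembl gene, not normalized. The submitters' processing notes also name bcl2fastq, FastQC 0.10.1 and Cufflinks. The settings of the counting are not given in the sources used here. Groups came from the sample labels, and the labels do not state how replicate numbers were given. Nothing beyond 1 library per mouse is stated, so p-values measure the spread between mice of a group.

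Differential expression was computed in edgeR 4.0.16 (R 4.3.3). Genes were filtered with filterByExpr, scaled with TMM and fitted with a robust quasi-likelihood model of all 16 mice with 1 mean per group, with Benjamini-Hochberg adjustment at 0.05 over all genes. The study itself used cuffdiff2, which needs aligned reads. Correlations used log2 CPM with a prior count of 2, and 0.5 was added to summed marker CPM. Symbols and positions came from GENCODE M21, in which 26 identifiers are absent, and promoters from RefSeq. The fit was tested on simulated data.

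The 8 genes, the lists and the markers were chosen with earlier results of these data known. Named are all 8 genes, of each list the called genes (the 5 largest changes where more were called) and for each of the 8 the 3 genes with the highest correlation. The alternatives comprised DESeq2 1.42.0, voom of limma 3.58.1 with sample quality weights, upper-quartile and DESeq2 scaling within edgeR, a block for the replicate number, and fits restricted to the groups under comparison or lacking each mouse in turn. Filters that kept genes reaching 1 count in any mouse, or 10 counts in all mice, were also tried. The fits without 2 or 3 libraries were chosen after seeing the data. Python 3.11.15 and matplotlib 3.10.9 served for tables and figures. At these depths 3 counts were 0.246 to 0.421 CPM, which covers counting error only.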

Additional observations from a re-analysis of the deposited data

Results flagged for a closer look

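Mt1 was at 65.5 CPM in fat-1 PF replicate 3, below the other 3 mice of its group, which lay between 93.1 and 95.6 CPM. The gap to the nearest mouse was 0.916 of the whole range of the group, above the limit of Dixon's test for 4 samples. This was the only one of 24 such tests of the 8 genes that passed, and chance alone passes about 5% of them. Mt2 of the same mouse (14.5 CPM) lay within the range of its group.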

How the results depend on the processing

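The counts of the 8 genes called kept their value or stayed within 1.5 times of it under all alternatives except 2. In WT EtOH against WT PF mice limma voom called 2 instead of 0, and in fat-1 EtOH against fat-1 PF mice 0 instead of 3 were called without fat-1 PF replicates 2 and 4. Leaving out 1 mouse gave 2 to 4 calls in the latter comparison and 0 in the others. Of the other zinc, copper and manganese genes, 16 were called in fat-1 mice, 9 in a fit of only the groups compared, 5 without fat-1 PF replicates 2 and 4, and 11 to 19 when 1 mouse was left out. Instead of 0, there were 7 (limma voom) and 4 (only the groups compared) in WT mice, and 1 by DESeq2, 1 by limma voom and 0 to 2 with 1 mouse left out between the PF groups. The cause was not tested. Between all 21 pairs of mice with the same replicate number the mean correlation of deviations was -0.0225, against 0.00703 over 74 other pairs. This gave no sign that the numbers pair the mice, but groups this small cannot exclude it. With the replicate block 2 of the 8 genes were called in fat-1 mice, and Mt1 was not (-0.68, adjusted p = 0.103). The block turned 2 values near 0, Slc30a10 between the PF groups (0.01) and the interaction of Slc39a4 (0.09).

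All values that changed sign were uncalled. In fat-1 EtOH against fat-1 PF mice these were, by limma voom, Mt2 (-0.27), Mtf1 (0.26) and Slc30a10 (0.00), by upper-quartile normalization Mtf1 (0.06), and without 2 or 3 EtOH libraries Mt2 (-0.32), Mtf1 (0.34) and Slc30a10 (0.03). In fat-1 EtOH against WT EtOH mice they were Mtf1 (0.04 without 2 and 0.05 without 3 libraries), Slc39a5 (0.03 and 0.04), Slc39a14 (0.04 and 0.03, and 0.00 by limma voom) and Mt2 (0.01 without 3). Slc30a10 between the PF groups was 0.24 by limma voom. In the interaction they were Mt1 without 2 EtOH libraries (-0.13), Mtf1 and Slc30a1 without 2 PF libraries (-0.13 each) and Slc39a4 by upper-quartile normalization (0.03). With 1 mouse left out, the ranges that included both signs were, in fat-1 EtOH against fat-1 PF mice, -0.13 to 0.37 (Mt2) and -0.26 to 0.10 (Mtf1), in fat-1 EtOH against WT EtOH mice -0.29 to 0.24 (Mt1) and -0.52 to 0.57 (Mt2), in WT EtOH against WT PF mice -0.02 to 0.50 (Slc30a10), between the PF groups -0.22 to 0.31 (Slc30a10), and in the interaction -0.06 to 0.47 (Mt1), -0.05 to 0.30 (Mtf1), -0.21 to 0.11 (Slc39a4) and -0.03 to 0.70 (Slc30a1). Upper-quartile normalization moved the median over all genes in fat-1 mice from 0.05 to 0.20 and in the interaction from 0.01 to 0.11. In WT EtOH against WT PF mice the number of all genes called was 11 with edgeR, 2853 with limma voom, 1076 in a fit of only these groups and 0 with the stricter filter. Between the PF groups it was 0 with edgeR, 189 with DESeq2 and 30 with limma voom. In fat-1 mice it was 5170, 3087 in a fit of only these groups and 1979 without fat-1 PF replicates 2 and 4.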
